A study of Mus musculus with 5 samples.

Results

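The genes described here are the Rab GTPases and the TBC1D genes, the main family of GTPase-activating proteins that switch Rabs off. Every protein-coding RefSeq gene of mm10 whose symbol begins with Rab or Tbc1d followed by a digit was taken, which gave 99 of 21887 genes. They are 59 Rab GTPases, 30 TBC1D genes and 10 partner genes that carry a Rab symbol, such as the Rab11 adaptors Rab11fip1 to Rab11fip5 and the subunits Rab3gap1 and Rab3gap2. The rule itself uses gene names, but the family was picked for description with earlier results of these data known. Nano-ChIP-seq, a form of chromatin immunoprecipitation for few cells, was used to map H3K36me3 in mTEClo, medullary epithelial cells of the mouse thymus sorted as EpCAM+, UEA-1+, Ly51lo and CD80lo from wild-type B6 animals whose age is not given in the sources used here. There was 1 group of 2 ChIP libraries, called series 1 and series 2, and no treatment or second genotype. The 3 input libraries, made without antibody, enter only through the authors' peak calling, 2 of them for series 1 and 1 for series 2. Individual mice were sorted, but which mouse gave which library is not stated. Differences between the 2 series may therefore be technical, and no test between conditions can be made.

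A Rab GTPase is held on the membrane of one organelle in its GTP form, where it recruits effectors that tether, move or fuse vesicles. Guanine nucleotide exchange factors (GEFs) load the GTP, and proteins with a TBC domain speed its hydrolysis, after which GDI extracts the prenylated Rab from the membrane. H3K36me3 is laid down by Setd2, which travels with elongating RNA polymerase II, and is known as a mark of transcribed gene bodies. In thymic epithelium, vesicle traffic carries MHC molecules, antigens and adhesion receptors to and from the surface.

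The deposited lists held 7231 broad peaks in series 1 and 10243 in series 2, with median widths of 483 and 222 bp, and no read counts, so depth is unknown. In series 2, 65.6% of the peaks were narrow, here at most 3 bp wider than its median, against 1.92% at or under that width in series 1. The lack of a peak does not show that a gene lacked the mark. Of 12 medullary epithelial markers, 5 had a peak in at least 1 series (Itga6, Krt5, Lamb3, Relb and Trp63), beside 27.4% of all coding genes, and Epcam, a marker of the sort, had none. None of 12 thymocyte markers had one. Their median span was 13.0 kb, and 19% of all coding genes of 11.7 to 17.2 kb had a peak in at least 1 series. The marker lists differ in length, with median spans from 9.88 kb for cortical epithelium to 61.1 kb for endothelium. Of the other markers, 2 of 7 for cortical epithelium, 3 of 6 for B cells, 3 of 6 for myeloid cells, 1 of 6 for fibroblasts and 1 of 5 for endothelium had a peak in at least 1 series, and their part in the results below was not tested.

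Peaks touched 42 of the 99 genes. In series 1, 29 genes (29.3%, exact binomial 95% interval 20.6 to 39.3%) held at least 1 bp of a peak, beside 16.3% of all protein-coding genes. In series 2 there were 23 (23.2%, 15.3 to 32.8%), beside 19.5%. Both series marked 10 genes (10.1%, 4.95 to 17.8%), beside 8.42%, and at least 1 series marked 42 (42.4%, 32.5 to 52.8%), beside 27.4%. The count of genes hit in both therefore lay near the background. With a peak score of at least 20, members hit in series 2 and in both numbered 8 and 2 of 99. These shares were below the 9.01% and 3.3% of all coding genes under that rule, by few genes. The intervals cover counting error over genes only, and genes are not replicates. Of the rest, 19 were hit in series 1 alone and 13 in series 2 alone.

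Long genes held more peaks, and the members are long, so the counts were also set beside genes of like length. The members' median span was 29.4 kb, against 17.2 kb over all protein-coding genes. All coding genes were divided by span into 10 classes of equal size, which are given here in 3 bands. Of the 24 members in classes 1 to 5, the shorter genes, 2 were hit in series 1 and none in series 2, where the shares of all genes of those classes were 3.74% and 4.79%. Among the 43 in classes 6 to 8, 12 (27.9%) were hit in series 1 and 9 (20.9%) in series 2, beside 20.8% and 22.8%. Among the 32 in classes 9 and 10 it was 15 (46.9%) and 14 (43.8%), beside 41% and 51.1%. In all 3 bands the members' share was above the background in series 1 and below it in series 2, and the exact 95% interval included the background each time. Genes hit in both series numbered 0, 4 and 6 in the 3 bands, beside 0.914%, 8.6% and 26.9% of all genes. Those hit in at least 1 numbered 2, 17 and 23, beside 7.61%, 35.1% and 65.2%.

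**Figure D1:**
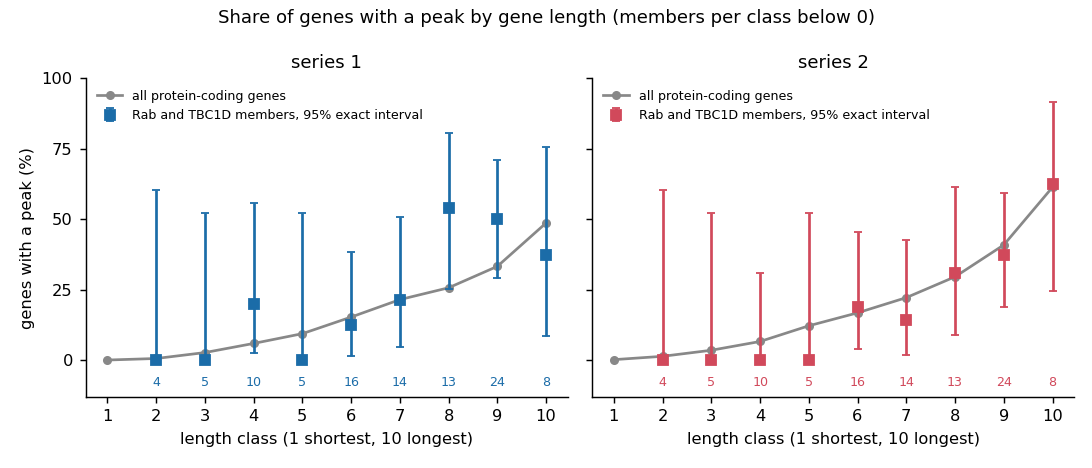
Share of genes with a peak (vertical axis, percent) by length class from the shortest to the longest genes, for series 1 (left) and series 2 (right); grey points joined by a line are all protein-coding genes, squares are the Rab and TBC1D genes with exact 95% binomial intervals, and the number of these genes in a class stands below 0. The share of all genes rises from class 1 to class 10, and the members' intervals are wide.

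The genes hit in both series were 2 Rab GTPases, 2 partner genes and 6 TBC1D genes. All 10 were longer than 42 kb, with a median of 77.5 kb, whereas the 57 members without any peak had a median of 21.7 kb. Promoter sequences are shown first, because all 7 of the 10 that have an entry in the RefSeq promoter table carry the letters GGGCGG, the core of the GC box bound by Sp1-type factors, within 250 bases before their start. This motif was searched on both strands as GGGCGG and CCGCCC, and overlapping matches were counted. It was present in 54 of 79 members with an entry (68.4%), in 30 of 45 members with no peak (66.7%), in 61.3% of the 1476 coding genes hit in both series and in 42.7% of all 17492 coding genes with an entry. Below, capitals mark the matches. Tbc1d15 and Rab22a were hit in both series, Tbc1d10b had the largest covered share and Rab32 had no peak and no match; these 4 were chosen after their values were seen. The sequences are from RefSeq on GRCm38.p6, the RefSeq form of the mm10 build, and run 5′ to 3′ on the gene's strand.
Tbc1d15 (chr10:115251494-115251743, minus strand): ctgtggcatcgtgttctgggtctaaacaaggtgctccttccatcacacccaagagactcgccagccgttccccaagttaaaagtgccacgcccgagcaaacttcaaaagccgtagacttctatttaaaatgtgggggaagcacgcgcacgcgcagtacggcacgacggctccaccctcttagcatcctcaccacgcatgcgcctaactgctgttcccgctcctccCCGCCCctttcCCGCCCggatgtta
Rab22a (chr2:173659595-173659844, plus strand): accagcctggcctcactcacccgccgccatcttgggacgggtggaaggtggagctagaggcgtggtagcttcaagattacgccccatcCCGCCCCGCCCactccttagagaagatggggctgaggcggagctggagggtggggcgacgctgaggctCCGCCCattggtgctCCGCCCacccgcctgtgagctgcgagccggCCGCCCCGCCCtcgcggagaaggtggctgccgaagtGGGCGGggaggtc
Tbc1d10b (chr7:127208469-127208718, minus strand): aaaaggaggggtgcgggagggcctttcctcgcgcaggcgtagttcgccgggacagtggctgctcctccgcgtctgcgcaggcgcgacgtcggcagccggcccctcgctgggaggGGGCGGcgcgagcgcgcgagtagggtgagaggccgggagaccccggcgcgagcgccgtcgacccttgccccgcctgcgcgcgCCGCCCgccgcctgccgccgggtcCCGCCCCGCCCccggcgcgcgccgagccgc
Rab32 (chr10:10558208-10558457, minus strand): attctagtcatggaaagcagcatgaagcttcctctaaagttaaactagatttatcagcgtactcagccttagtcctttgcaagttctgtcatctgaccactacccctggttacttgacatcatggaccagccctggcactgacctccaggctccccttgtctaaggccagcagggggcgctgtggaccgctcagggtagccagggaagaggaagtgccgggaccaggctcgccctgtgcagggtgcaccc

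The 250 bases of Tbc1d15 hold 2 matches, those of Rab22a 7 and those of Tbc1d10b 4. CG dinucleotides, which are frequent in the promoters of broadly expressed genes, number 19, 21, 45 and 5 in Tbc1d15, Rab22a, Tbc1d10b and Rab32. Their number relative to that expected from base composition was 0.977, 0.688, 1.11 and 0.259. A ratio of at least 0.6 was found in 56 of the 79 members (70.9%), beside 45.2% of all coding genes with an entry. Among the members the share was 5 of 7 for those hit in both series, 18 of 27 for those hit in 1 (66.7%) and 33 of 45 for those hit in neither (73.3%). Among all coding genes with an entry it was 74.2% for those hit in both, 65.2% for those hit in 1 and 36.7% for those hit in neither. The E-box letters CACGTG, a palindrome that the lysosomal regulator TFEB binds, were found in 9 members (11.4%, beside 6.65%), and the TATA box letters TATAAA, searched on both strands, in 5 (6.33%, beside 12.4%). A match describes letters only. None of the 79 members had a peak in its promoter window of 250 bases before and 50 after an annotated start, in either series, beside 0.0572% of coding genes in series 1 and 0.0743% in series 2.

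Rab2a and Rab22a were the Rab GTPases hit in both series. Rab22a, an early endosome Rab of the Rab5 subfamily, lies on chromosome 2 from 173659836 to 173702186. It had 2 peaks in series 1 over 4.78% of its span and 1 in series 2 over 0.80%, with highest scores of 33 and 11; the mean covered share was 2.79% ± 2.82 (SD, n = 2). The score is the authors' whole number per peak, with 10 as the lowest in both lists, and is read only within a list. The series 1 peaks lay 15.3 and 41.8 kb from the start and the series 2 peak 1.91 kb from it, so the series 2 peak lay nearer the start than both series 1 peaks. The wider series 1 peak, of 1512 bp, runs past the end of the gene and also touches the microRNA gene Mir6340. Rab2a, which acts between the endoplasmic reticulum and the Golgi, lies on chromosome 4 from 8535469 to 8607702. A single peak covered 0.78% of it in series 1 and another covered 0.31% in series 2. Their scores of 16 and 12 were reached by 84.9% and 98.1% of the peaks of their lists.

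Rab3gap2 was the one gene of the family in which the lists marked the same bases. It encodes the non-catalytic subunit of the Rab3 GTPase-activating complex, which also acts as an exchange factor for Rab18, and lies on chromosome 1 from 185204088 to 185286756. Its single series 1 peak of 479 bp fell wholly inside a series 2 peak of 1356 bp, 98.6% and 98.1% of the way along the gene. The 479 shared bp were 100% of its covered bases in series 1 and 26.6% of those in series 2, which had 2 further narrow peaks. Covered shares were 0.58% and 2.18%, 1.38% ± 1.13 (SD, n = 2), and scores reached 18 and 15. The series 2 peak over the shared bases had a score of 13, and the 15 was that of a narrow peak elsewhere in the gene. At the shared bases, the scores of 18 and 13 were below the list medians of 21 and 16. Rab3gap2 overlaps Iars2 at its border, but no peak of it touched another coding gene. Among all 1843 coding genes hit in both series, 17.6% held such a shared stretch, and here it was 1 of 10. Rab11fip2, a Rab11 adaptor that binds myosin Vb, lies on chromosome 19 from 59893502 to 59943656. It had 1 peak per series, 39.5 kb from the start in series 1 with a score of 46 and 11.5 kb from it in series 2 with a score of 17.

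Of the 6 TBC1D genes hit in both, Tbc1d15 had covered shares in the series that differed by the smallest ratio. It encodes a GTPase-activating protein for Rab7 and lies on chromosome 10 from 115197871 to 115251493. Series 1 had 2 peaks over 1.51% of it and series 2 had 1 over 1.16%, 1.34% ± 0.25 (SD, n = 2), and it alone of the family was covered over at least 1% in both. The nearest peaks of the lists were 4.09 kb apart. Its series 2 peak, 623 bp wide, had the highest score of any member in that list, 48, which 2.80% of the series 2 peaks reached.

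Tbc1d4 held the highest-scored peak of the family. It encodes AS160, an Akt substrate that controls the traffic of glucose transporter vesicles, and lies on chromosome 14 from 101442360 to 101609281. Of its 2 series 1 peaks, one was only 244 bp wide but had a score of 207, which 5 of the 7231 peaks of that list reached, itself included. That peak lay 131 kb from the start, and the other, with a score of 22, lay 135 kb from it. The series 2 peak, 662 bp wide, had a score of 12 and lay 34.4 kb from the nearest series 1 peak, so nothing in series 2 stood at the high peak. Covered shares were 0.65% and 0.40%. Tbc1d1, its closest relative, spans 195.2 kb and had no peak in either series.

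The other 4 were Tbc1d8, Tbc1d19, Tbc1d22b and Tbc1d32. Tbc1d22b, on chromosome 17 from 29549768 to 29606895, was the gene whose highest scores were above 30 in both lists, 36 and 42, with covered shares of 0.54% and 0.77%. Both of its series 2 peaks also touch the non-coding gene Tbc1d22bos, and without strand their source cannot be told apart. Tbc1d32, known for its part in cilium assembly and Hedgehog signalling, lies on chromosome 10 from 56014293 to 56228968. It had 3 peaks in series 1, the best with a score of 66, and 1 in series 2 with a score of 29. One of the 3 also touches Msl3l2. Tbc1d8 (chromosome 1 from 39371495 to 39478778) was covered over 1.37% and 0.21%, and Tbc1d19 (chromosome 5 from 53809543 to 53909221) over 0.98% and 0.22%. In 9 of the 10 genes, the lists shared no base, and the nearest peaks of the lists were 4.09 to 65.6 kb apart.

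**Figure D2:**
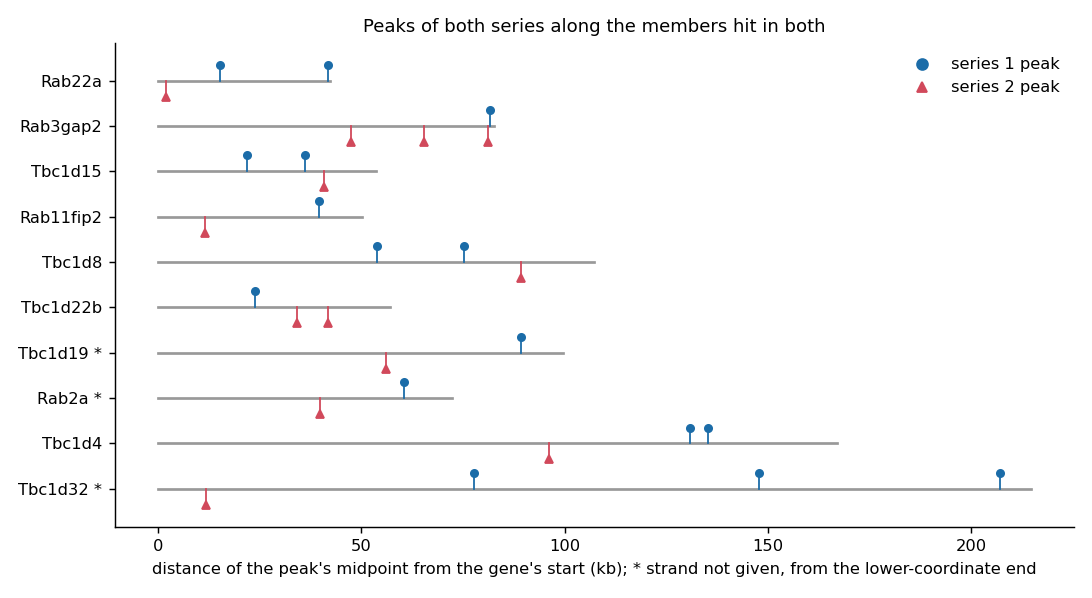
Peak midpoints along the 10 genes hit in both series, in kb from the gene's start (horizontal axis); circles above the grey gene line are series 1 peaks and triangles below it series 2 peaks, and an asterisk marks the 3 genes whose strand is not given, drawn from the end with the lower coordinate. Only in Rab3gap2 do peaks of both series share bases, near the far end of the gene.

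Over all lengths, a smaller share of the 59 Rab GTPases than of the TBC1D genes had a peak. Series 1 marked 11 (18.6%), series 2 marked 8 (13.6%), both marked 2 (3.39%) and at least 1 marked 17 (28.8%), beside 16.3%, 19.5%, 8.42% and 27.4% of all coding genes. These shares were near the background or below it. For the 30 TBC1D genes the counts were 13 (43.3%), 13 (43.3%), 6 (20%) and 20 (66.7%). Median spans were 23.2 and 60.5 kb, so the classes differ in length as well, and their difference was not tested. In length classes 9 and 10, at least 1 series marked 7 of 12 Rab GTPases (58.3%) and 14 of 16 TBC1D genes (87.5%). The share of all genes of those classes was 65.2%. Of these 16 TBC1D genes, 10 (62.5%) were hit in series 1, 8 (50%) in series 2 and 4 (25%) in both. Of the 12 Rab GTPases it was 3 (25%), 5 (41.7%) and 1 (8.33%). All genes of those classes gave 41%, 51.1% and 26.9%. The long TBC1D genes were thus above this background in series 1 but not in series 2 or in both. In classes 6 to 8, at least 1 series marked 9 of 28 Rab GTPases (32.1%) and 5 of 10 TBC1D genes (50%), beside 35.1%. Counted in series 1, whether or not series 2 had a peak, the order was the other way. There it was 7 of 28 Rab GTPases (25%) and 2 of 10 TBC1D genes (20%), beside 20.8%. In series 2 it was 3 of 28 Rab GTPases (10.7%) and 5 of 10 TBC1D genes (50%), beside 22.8%. Both series marked 1 of the 28 (3.57%) and 2 of the 10 (20%), beside 8.6%. In classes 1 to 5, 1 of 19 Rab GTPases (Rab19) and 1 of 4 TBC1D genes (Tbc1d10b) had a peak in at least 1 series, beside 7.61%.

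**Figure D3:**
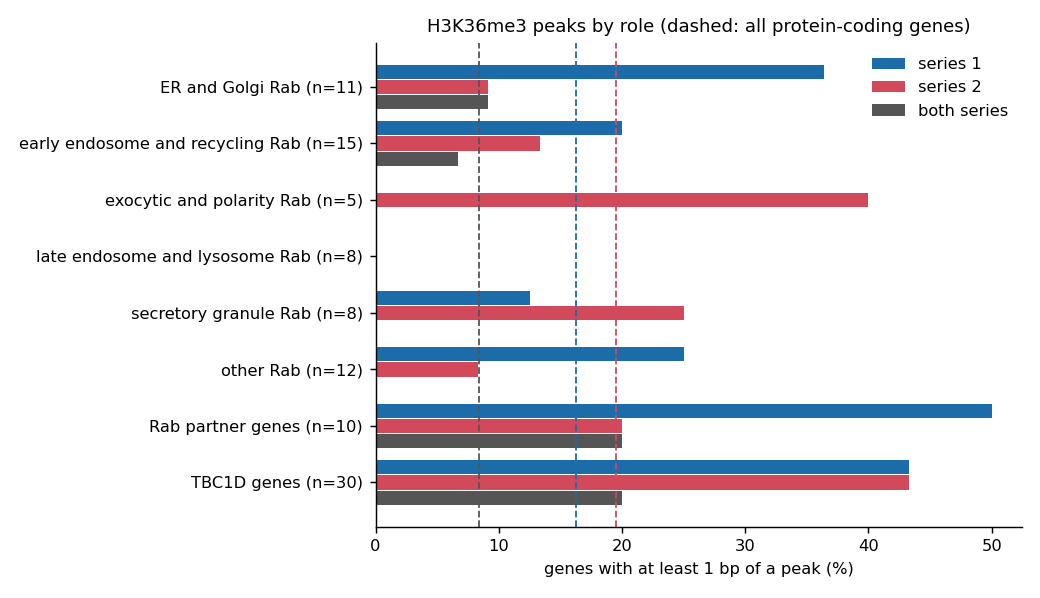
Percent of genes that a peak touches (horizontal axis) for each role, with the number of genes in brackets; bars are series 1, series 2 and both series, and dashed lines give the same shares over all protein-coding genes. The bars of the 30 TBC1D genes reach 43.3%, and the 8 Rabs of late endosomes and lysosomes have none.

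Of 11 Rabs of the endoplasmic reticulum and Golgi, series 1 marked 4 (36.4%) and series 2 marked 1 (9.09%), beside 16.3% and 19.5% of all coding genes. Their median span of 25.4 kb falls in length class 7, where 21.5% and 22.2% of all genes were hit. With so few genes the difference between the series rests on 3 of these Rabs. Rab6a, which serves traffic through and back from the Golgi, had 1 series 1 peak of 307 bp with a score of 26. Its paralogue Rab6b, known from neurons, had 1 of 339 bp with a score of 32. Rab18, of lipid droplets and the endoplasmic reticulum, had 1 with a score of 18. Rab1a and Rab1b, which act in the first step from the endoplasmic reticulum to the Golgi, had no peak, and neither did Rab2b, Rab30, Rab33a, Rab33b and Rab43. At 102.9 kb, Rab30 was the longest of these.

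Of 15 Rabs of early endosomes and recycling, series 1 marked 3 (20%) and series 2 marked 2 (13.3%), near the 16.3% and 19.5% of all coding genes. Rab21, which takes part in integrin endocytosis, had the widest peak of the family, 1565 bp in series 1 over 5.68% of its span and 91.4% of the way along the gene, with a score of 22. It lies 38.4 kb from Tbc1d15, the closest pair of members, and both had peaks in series 1. Rab11a, the Rab of recycling endosomes, had a series 1 peak of 258 bp with a score of 14. Rab31 had a series 2 peak of 221 bp with a score of 21. No peak was found in Rab5a, Rab5b and Rab5c, the defining Rabs of early endosomes, or in Rab4a, Rab4b, Rab11b, Rab14, Rab15, Rab17, Rab25 and Rab35. These 11 genes span 6.25 to 29.4 kb.

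Of 5 Rabs listed under exocytosis and polarity, series 1 marked none and series 2 marked 2, beside 16.3% and 19.5% of all coding genes, and 5 genes are too few to set these apart. Rab12, which is also known from recycling endosomes and autophagy, had 3 peaks in series 2 over 2.65% of its span, the largest share of any member in series 2, with scores of 43, 14 and 15. The peaks were 216 to 228 bp wide, and 2 of them also touch the non-coding gene Gm41608. Rab8a, of the exocytic pathway and the primary cilium, had 1 peak with a score of 12. Rab8b, Rab10 and Rab13 had none, although Rab8b spans 76.1 kb and Rab10 62.5 kb. Of the 8 Rabs of secretory granules, 3 (37.5%) had a peak in at least 1 series, beside 27.4% of all coding genes. Their median span of 58.5 kb falls in length class 9, where 54.6% of all genes were hit. Rab37 had a peak in series 1, which lies where the gene overlaps Cd300lf and counts for either. Rab3b and Rab3c had 1 peak each in series 2, of 216 and 226 bp, with scores of 15 and 12. Rab3a, Rab3d, Rab26, Rab27a and Rab27b had none, the last over 162.5 kb.

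None of the 8 Rabs of late endosomes, lysosomes and related organelles had a peak in either series. They are Rab7, Rab7b, Rab9, Rab9b, Rab24, Rab29, Rab32 and Rab38, with a median span of 17.9 kb. Rab38 with 61.3 kb and Rab7 with 46.2 kb are the longest of them. For 0 of 8 genes the exact 95% interval reaches to 36.9%, which includes the 27.4% of all coding genes hit in at least 1 series. Of the remaining 12 Rabs, 4 (33.3%) had a peak in at least 1 series, near the 27.4% of all coding genes. Rab19, Rab23 and Rab40c had one in series 1 and Rab28 had 2 in series 2. Rab23 restrains Hedgehog signalling, and its peak covered 1.96% of the gene; Rab19 is short, at 9.96 kb, and 4.40% of it was covered. Rab20, Rab34, Rab36, Rab39, Rab39b, Rab40b, Rab42 and Rab44 had none.

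Partner genes with a Rab symbol were hit in 5 of 10 cases, all 5 in series 1, beside 27.4% of all coding genes in at least 1 series and 16.3% in series 1. Their median span of 47.4 kb falls in length class 8, where 43.3% of all genes were hit in at least 1 series and 25.7% in series 1. Beside Rab11fip2 and Rab3gap2 these were Rab11fip1 with 2 peaks and a highest score of 42, Rab3gap1, the catalytic subunit of the Rab3 GTPase-activating complex, with 1 of score 21, and Rab3ip, the exchange factor for Rab8 also called Rabin8, with 1 of score 16. Both subunits of the Rab3 complex were thus hit in series 1, and Rab3gap2 alone in series 2. Rab11fip3, Rab11fip4, Rab11fip5, Rab3il1 and Rab5if had no peak, and Rab11fip4 spans 107 kb.

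TBC1D genes hit in series 1 alone were Tbc1d5, Tbc1d9, Tbc1d10b, Tbc1d12, Tbc1d14, Tbc1d23 and Tbc1d31. Tbc1d10b, of the EPI64 family, lies on chromosome 7 from 127197459 to 127208468 and had the largest covered share of all members: 2 peaks of 1022 and 266 bp made up 11.7% of its 11 kb. It was the only member covered over at least 10%, a level that 0.525% of coding genes reached in series 1 and 0.233% in series 2. Mylpf lies 0.38 kb away, and neither peak touched it. Tbc1d5, a Rab7 regulator bound to the retromer, is the longest member at 448.1 kb; its 3 peaks all lay in the last of 3 equal parts and covered 0.23%. Tbc1d12 had a peak of 390 bp with a score of 58, which 4.04% of the series 1 peaks reached. Tbc1d31, of centriolar satellites, had 2 peaks over 2.52%.

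TBC1D genes hit in series 2 alone were Tbc1d2b, Tbc1d7, Tbc1d8b, Tbc1d10a, Tbc1d16, Tbc1d20 and Tbc1d22a, each with 1 peak. Tbc1d7, the small subunit of the TSC complex that restrains mTORC1, had one of 228 bp with a score of 33 over 1.15% of its span. Tbc1d20, a Rab1 GTPase-activating protein, had a narrow one with a score of 12. The peak of Tbc1d10a had a score of 42 but reached only 77 of its 221 bp into the gene, at the gene's end. The TBC1D genes without a peak were Tbc1d1, Tbc1d2, Tbc1d9b, Tbc1d10c, Tbc1d13, Tbc1d17, Tbc1d21, Tbc1d24, Tbc1d25 and Tbc1d30. The 3 EPI64 family members therefore differed: Tbc1d10b was hit in series 1, Tbc1d10a in series 2 and Tbc1d10c in neither.

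Covered shares were small throughout. Over the 29 members hit in series 1 the median covered share was 0.98% (0.23 to 11.7%), beside 1.19% over all 3571 coding genes hit there. Over the 23 hit in series 2 it was 0.40% (0.08 to 2.65%), beside 0.63% over 4262. For the 10 genes hit in both, the median of the mean share was 0.72%, beside 0.85% over all coding genes hit in both. The members' medians were below those of all hit genes in each list, and no test of this was made.

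**Figure D4:**
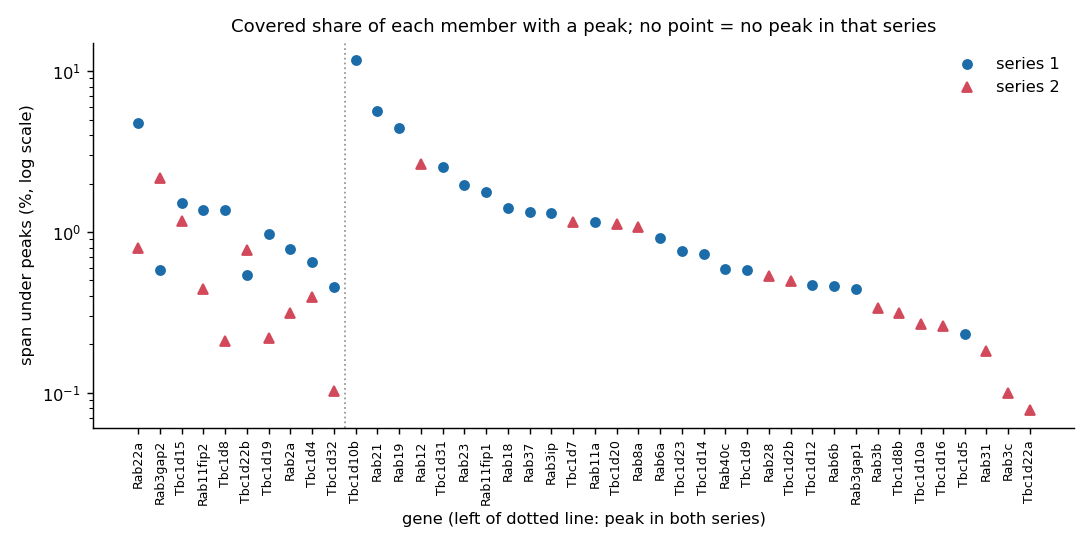
Percent of each gene's span under peaks (vertical axis, log scale) for the 42 genes with a peak; circles are series 1 and triangles series 2, genes left of the dotted line have a peak in both, and a missing symbol means no peak in that series. Tbc1d10b stands highest at 11.7% in series 1, and in 8 of the 10 genes hit in both the circle lies above the triangle.

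The peaks are set here beside the lists they came from. The 40 series 1 peaks in members had a median width of 424 bp and a median score of 21.5, against 483 bp and 21 in the whole list. The 29 series 2 peaks had a median width of 222 bp and a median score of 14, against 222 bp and 16. A score of at least 20 was reached by 55.0% and 27.6% of the member peaks, against 55.8% and 35.7% of the lists. Of the series 2 peaks, 21 of 29 (72.4%) were narrow. Another coding gene was touched by 2 of the 40 series 1 peaks and by none of the 29 in series 2, and a non-coding gene by 3 and 4.

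More member peaks lay in the far part of a gene than in the near part. Strand was known for 79 of 99 members and for 17492 of 21887 coding genes, and position was taken as the distance of a peak's midpoint from the gene's start as a percent of its span. In series 1, 19 of 29 peaks (65.5%, exact binomial 95% interval 45.7 to 82.1%) lay in the last of 3 equal parts of the gene and 2 in the first, beside 43.1% and 22.2% of the 4138 gene and peak pairs over all coding genes. In series 2, 12 of 25 (48.0%, 27.8 to 68.7%) lay in the last part and 7 in the first, beside 40.9% and 23.8% of 5204. The median position was 70.5% of the way along members in series 1 and 65.5% in series 2, beside 60.9% and 58.9%. Peaks in 1 gene are not independent, and the interval covers counting error only. Among the series 1 peaks, 1 of the 2 in Rab22a and the single ones of Rab3gap2 and Rab3ip lay more than 98% of the way along.

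**Figure D5:**
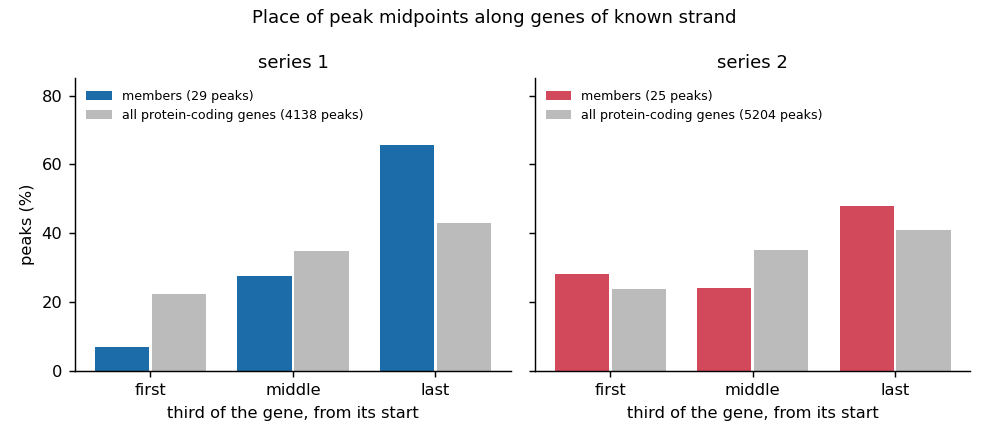
Percent of peaks (vertical axis) whose midpoint lies in the first, middle or last of 3 equal parts of a gene counted from its start, for series 1 (left) and series 2 (right); coloured bars are Rab and TBC1D genes, grey bars all protein-coding genes of known strand. In both series the last part holds the most peaks, 65.5% and 48.0% for the members.

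Other genes of the Rab cycle were counted from lists of exchange factors, further GTPase-activating proteins, prenylation and GDI genes, and effectors. Of 105 symbols written down, 102 matched a coding gene; series 1 marked 50 of them (49.0%), series 2 marked 34 (33.3%) and both marked 24 (23.5%), beside 16.3%, 19.5% and 8.42% of all coding genes. Their median span was 50.9 kb. In length classes 1 to 5, 5 of 23 (21.7%) were hit in series 1 and 2 (8.70%) in series 2, beside 3.74% and 4.79% of all genes of those classes. In classes 6 to 8, 17 of 31 (54.8%) were hit in series 1 and 8 (25.8%) in series 2, beside 20.8% and 22.8% of all genes of those classes. In classes 9 and 10 it was 28 of 48 (58.3%) and 24 (50%), beside 41% and 51.1%. In series 1 the shares were above those of all genes in all 3 bands. In series 2 they differed from those of all genes by few genes in each band, so no direction is read from them. None of these differences was tested.

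The following counts stand beside 8.42% of all coding genes hit in both series, 16.3% in series 1 and 19.5% in series 2, and the lists differ in length, with median spans of 44.6 kb for exchange factors, 96.6 kb for the GTPase-activating proteins and 59.7 kb for effectors. Exchange factors were hit in both series in 10 of 40 cases: Ankrd27, Dennd1b, Dennd2a, Dennd4c, Dennd6a, Madd, Rabgef1, Rabif, Rin3 and Sbf2. Rabif, which binds nucleotide-free Rabs, was covered over 4.29% and 8.76% of its 13.3 kb. Madd, an exchange factor for Rab3 and Rab27, was covered over 2.37% and 2.34% with 218 bp shared, and Dennd4c over 3.37% and 1.03% with 232 bp shared. GTPase-activating proteins outside the TBC1D symbols were hit in both in 4 of 10 cases: Evi5, Rabgap1, Rabgap1l and Tbck. Of 45 effectors, series 1 marked 26 and series 2 marked 11, with Ankfy1, Appl1, Ehbp1, Exoc6b, Fyco1, Inpp5b, Lrrk1, Micall1, Rims2 and Uso1 in both. Ankfy1, a Rab5 effector, shared 589 bp, and Appl1, of a Rab5-positive early compartment, was covered over 2.82% and 0.71%. Eea1, the tether of early endosomes that Rab5 recruits, was hit in series 1. Of the 7 prenylation and GDI genes, which are short with a median of 6.4 kb, only Chm, the Rab escort protein, was hit, in series 1.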

How the data were processed

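H3K36me3 ChIP of 2 mTEClo libraries was analysed as 2 lists of broad peaks. The submitters' processing notes name Bowtie2, SAMtools, MACS2 and the mm10 build, without versions or settings. Per the names of the peaks, series 1 was called against 2 inputs together and series 2 against 1, singly and not pooled. The authors deposited for each peak its position and a whole-number score whose meaning is not stated; it was used only within a list. Read-level data were not used here, so depth is unknown and the number of libraries limits precision.

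Spans came from a RefSeq table on GRCm38.p6, and strand from the RefSeq promoter table; 20 members have no entry there. A gene counted as hit with at least 1 bp of a peak, for each gene where genes overlap. Named genes were those hit in both series, the leaders in covered share, score and peak number, fixed members and, for the other Rab genes, those hit in both; a few others were named after their values were seen. Members and lists were chosen with earlier results of these data known. Dennd2b, St5 and Zfyve20 of the lists were not matched. There is no second condition, so no test was run; intervals are exact (Clopper-Pearson, 95%). Alternatives were scores of at least 20 or 50, other overlaps, wider peaks, unique peaks, isolated genes, extended spans and each library left out. Code was checked on simulated intervals. Intervals were computed with scipy 1.17.1 and joins with pandas 2.3.3, numpy 2.4.6 and Python 3.11.15.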

Additional observations from a re-analysis of the deposited data

How the results depend on the processing

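Counts of members hit in series 1, series 2, both and either (29, 23, 10 and 42) fell with stricter rules: to 18, 8, 2 and 24 with a score of at least 20, to 3, 0, 0 and 3 with at least 50, to 14, 6, 1 and 19 with at least 1% of the span covered, and to 1, 0, 0 and 1 with at least 10%. Backgrounds fell as well, to 10.9%, 9.01%, 3.3% and 16.6% of coding genes with a score of at least 20, to 1.48%, 0.763%, 0.0868% and 2.16% with at least 50, to 9.12%, 7.10%, 2.28% and 13.9% with at least 1% covered, and to 0.525%, 0.233%, 0.0183% and 0.740% with at least 10%. With a score of at least 20 or with 1% covered, the members' shares in series 2 and in both were below the background by few genes. With a score of at least 50 or 10% covered, no member was hit in series 2 or in both. Where the background is 0.763% or lower, a count of 0 of 99 says little. The 2 genes left in both with a score of at least 20 were Tbc1d22b and Tbc1d32. With narrow peaks left out of both lists, 8 of 99 members were hit in series 2 and 4 in both, beside 9.76% and 4.98% of coding genes. These shares too went from above the background to below it, again by few genes. Of the 45 members with no coding gene within 5 kb, 15, 14, 6 and 23 were hit, beside 15.6%, 18.8%, 8.47% and 25.9% of such genes. Unique peaks, midpoints, at least 100 bp and spans extended by 2 kb left all 4 counts within 1.5 times.

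Of the 102 other Rab genes, 38, 18, 11 and 45 were hit in series 1, series 2, both and either with a score of at least 20. The shares of all coding genes under that rule were 10.9%, 9.01%, 3.3% and 16.6%. With a score of at least 50 the counts were 6, 3, 1 and 8, beside 1.48%, 0.763%, 0.0868% and 2.16%. With 2 libraries, leaving out 1 only returns the values of the other and is no separate check. It gave 23 or 29 members and 34 or 50 other Rab genes in place of those hit in either. The median covered share was 0.42 or 0.88% in place of 0.72%. In the last part of members lay 48.0 or 65.5% of peaks in place of 57.4%, and without series 1 this was 48.0%. The covered share was 0.37% over 2 genes with a score of at least 20 and 1.22% over 4 without narrow peaks. The shared bases in members went from 479 to 0 bp with a score of at least 20. No paired analysis was possible because there is 1 group of ChIP libraries and no second group to pair it with.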
